A study of Mus musculus with 26 samples.

Results

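The comparison described here is that of MstTg, mice that overexpress the kinase Mst-1, with wild-type mice (wt), with galectin-3 intact in both. The members are all samples of these groups by their titles, 7 of MstTg and 6 of wt, 13 of the 26 samples in the series, and all 15249 genes of the deposited count table were compared. Both groups have the C57BL6 background, and the tissue is left ventricle. The wt mice carry no altered gene by their labels, and the MstTg mice carry only the Mst-1 overexpression, which the design text presents as a model of dilated cardiomyopathy. The labels give no age, no sex, no promoter or cell type for the transgene, and do not say whether each sample came from its own animal, so the p-values rest on the spread among samples, which may be technical in part. The other groups, Gal3Ko (8 samples, galectin-3 knockout) and Mst1Gal3 (5 samples, both alterations), entered the fit and are used only where the Mst-1 response in the knockout is set beside that of MstTg.

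Mst-1, encoded by Stk4, is a kinase of the Hippo pathway. It phosphorylates and activates the LATS kinases, which in turn phosphorylate the coactivators YAP and TAZ and keep them out of the nucleus, where they would act with TEAD transcription factors. In heart muscle cells the kinase is also known to promote cell death under stress.

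Stk4 (GRCm38 chromosome 2, 164070322 to 164155524, positions from GENCODE M21) ran from 22.4 to 26.1 CPM (median 23.4) in wt and from 846 to 1066 CPM (median 943) in MstTg, and its log2 fold change (MstTg minus wt) was 5.33 (SE 0.068, adjusted p = 3.19e-30), a 40.1-fold difference. CPM are counts scaled to the same sequencing depth, by library sizes adjusted with edgeR's TMM factors, and adjusted p is that of edgeR's quasi-likelihood test over all genes. Below, a log2 fold change is given with its standard error after ±, and a level in CPM with its SD. Every MstTg sample was far above every wt sample, as the labels say. Lgals3 (chromosome 14, 47367751 to 47386160), which encodes galectin-3, was intact in both groups and ran from 0.878 to 2.42 CPM (median 1.6) in wt and from 50.9 to 60 CPM (median 55.1) in MstTg (a log2 change of 5.08, SE 0.15, adjusted p = 5.90e-23). Its groups did not overlap either.

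Total counts ran from 20134061 to 27543943 in wt and from 19922124 to 29774835 in MstTg. Transcripts of the mitochondrial genome took 31.03% ± 2.36 (SD, n = 6) of the counts in wt and 17.68% ± 2.8 (SD, n = 7) in MstTg, and MstTg replicate 1 stood apart within its group at 23.35%. The highest share in wt was also that of replicate 1, at 35.46%. The first principal component of log2 CPM over the 13400 genes of at least 1 CPM held 76.2% of the variance and separated the groups. Cardiomyocyte markers were high in all 13 samples, with summed levels of 98150 to 123800 CPM in wt and 110300 to 130400 CPM in MstTg. The sum rests on a few very abundant genes: of the 10 markers 2 rose and 7 fell, with a median log2 fold change of -0.53. All 5 ventricular markers fell, with summed levels of 6893 to 8219 CPM in wt and 3461 to 4895 CPM in MstTg. The atrial light chain Myl4 exceeded 10 CPM in 4 samples (wt replicate 5 and MstTg replicates 1, 5 and 6). In the others it ran from 0.98 to 2.91 CPM in wt and from 4.87 to 9.39 CPM in MstTg. The cut at 10 CPM is thus not independent of group. The 5 measured atrial markers had a median log2 fold change of 0.25 (1 called) with all samples and 1.57 (none called) without these 4. Counts that change without the 4 samples are given beside the result. In such bulk tissue, fewer cells of a type and less RNA per cell cannot be told apart. The values are relative to the TMM scaling: with plain library totals the median log2 fold change of all genes was 0.27 in place of 0.02, and with them 7789 genes were called higher and 2166 lower. With totals that leave out the transcripts of the mitochondrial genome the median was 0.01.

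Of the genes tested, 55% changed at an adjusted p under 0.05, 28.2% upward and 26.8% downward. Most of these changes were small, and 4463 of them (53.2%) were under 1.5-fold. At the other end 368 genes rose at least 4-fold against 147 that fell as much, and 82 rose at least 16-fold against 19 that fell as much. A gene was taken as changed beyond a bound of 1.3-fold where edgeR's test against that bound gave an adjusted p under 0.05, and as held where the 95% interval of its log2 fold change lay inside the bound on both sides. By these rules 3894 genes (25.5%) changed beyond the bound, 4864 (31.9%) were held, and 6491 (42.6%) could be placed in neither class. The classes of called and held overlap: 1113 genes had a difference that passed the test and yet an interval inside 1.3-fold. Of the 6864 genes not called, 3113 also lacked an interval inside the bound, so for these the data show neither a change nor its absence.

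The size of the response varied with the level of the gene. Genes were split into bands by the mean CPM of both groups, which is not corrected for gene length. From 10 to 100 CPM, where 6907 genes lie, the middle 50% of log2 fold changes spanned only 0.46, and 49% of genes were held. From 100 to 1000 CPM the span was 0.69, and among the 63 genes of 1000 CPM and above it was 1.21, with a median standard error of 0.080. The spread at the top is therefore far wider than the error of its genes. It is wide at the bottom as well, with a span of 0.83 below 1 CPM, but there the median standard error was 0.28, and none of the 1849 genes had an interval narrow enough to be called held. The deposited table holds no gene with a mean count under about 10, so the lowest band is cut short.

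The balance of directions changed along the same axis. Called genes were more often higher than lower below 1 CPM (23.8% of genes against 12%) and from 1 to 10 CPM (29.9% against 19.8%). They were more often lower from 10 to 100 CPM (27.8% against 33.1%), from 100 to 1000 CPM (30% against 46.1%) and above (30.2% against 46%). These directions rest on the TMM scaling. With library totals 7789 of all genes were called higher and 2166 lower, and the directions by band were not counted there. Among changes of at least 2-fold, the share that was upward went from 65.6% in the lowest band to 39% from 100 to 1000 CPM.

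**Figure D1:**
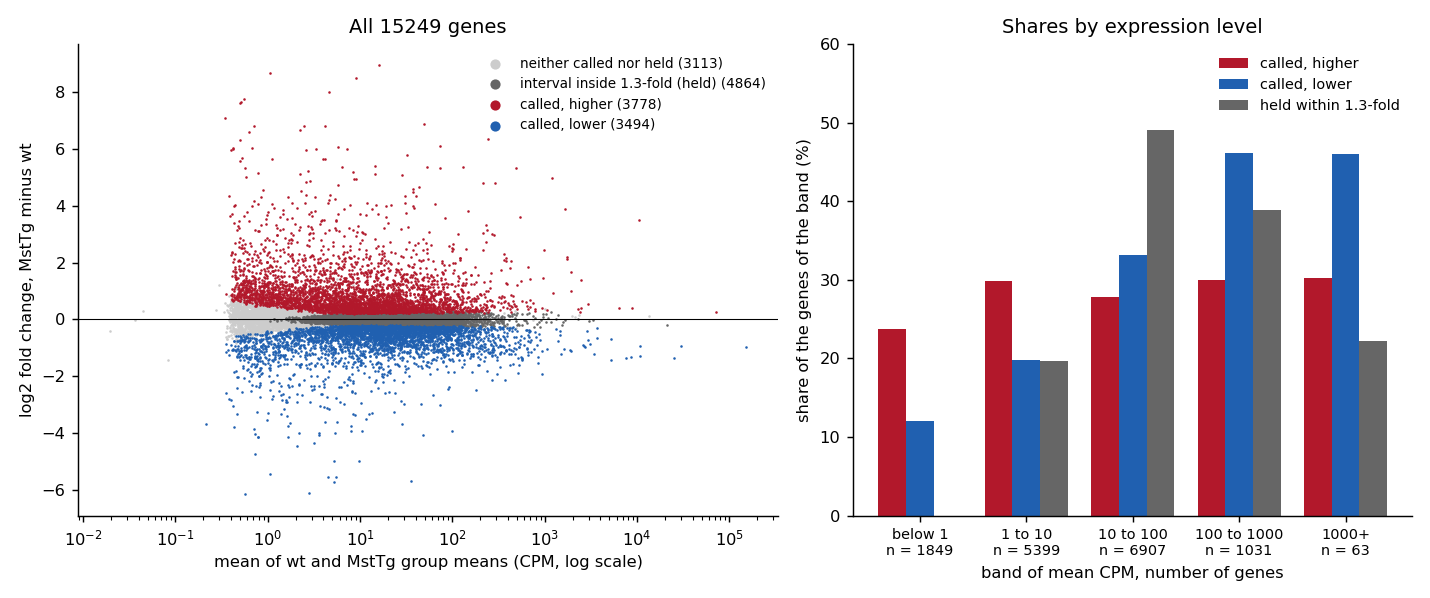
Left, the log2 fold change of MstTg against wt for all 15249 genes (vertical axis) by the mean CPM of both groups (horizontal axis, log scale) coloured by class, where grey marks all held genes, called or not. Right, the share of genes in each band of CPM that were called higher, called lower or held within 1.3-fold. The held share peaks from 10 to 100 CPM at 49%, and with TMM factors the lower calls pass the higher ones from that band upward.

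The leaders of the bands were of different kinds. Below 1 CPM the largest rise with a true zero in wt was Clca3b, with 0 counts over all 6 wt samples and 195 over the 7 of MstTg, at least 45.1-fold higher against a floor of 3 counts over the wt group. Helt, a basic helix-loop-helix repressor, went the other way, with 143 counts in wt and 2 in MstTg, a ratio of 103 whose 95% counting interval runs from 28 to 859. Tmprss13, a membrane serine protease, fell from 179 counts to 9. From 10 to 100 CPM, Ces1d, a carboxylesterase that hydrolyses lipids, ran from 78.7 to 106 CPM (median 89.4) in wt and from 4.42 to 8.03 CPM (median 4.74) in MstTg (a log2 change of -4.08, SE 0.11, adjusted p = 3.58e-22). From 100 to 1000 CPM the stress-induced transcription factor Atf3 ran from 2.89 to 12.4 CPM (median 5.86) in wt and from 166 to 319 CPM (median 265) in MstTg (5.35, SE 0.30, adjusted p = 1.15e-12), and Fndc5, the precursor of the secreted peptide irisin, ran from 278 to 359.8 CPM (median 304) in wt and from 49.1 to 63.1 CPM (median 54.9) in MstTg (-2.48, SE 0.078, adjusted p = 6.44e-22). In each of these genes the lowest sample of the higher group lay above the highest of the other, as in 32.2% of all genes. They were picked for the size of their change, which favours such a gap. At 1000 CPM and above the largest falls were of mitochondrial transcripts, led by mt-Nd2 (-1.43 ± 0.15) and mt-Nd1 (-1.36 ± 0.12), which encode subunits of respiratory complex I.

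The samples of each group varied among themselves to a like degree. Over genes of at least 1 CPM the median SD of log2 CPM was 0.15 in wt and 0.154 in MstTg, and the SD was larger in MstTg for 47.5% of genes. Below 1 CPM that share was 34.1%, and at 1000 CPM and above it was 71.4%. These SDs were not tested.

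The counts of each list below stand against all genes, of which 28.2% were called higher, 26.8% lower and 31.9% held. Transcription factors were compared in 12 families with 275 measured members. Of these 99 rose, 66 fell and 93 were held, so 60% were called against 55% of all genes, and the held share of 33.8% was near the 31.9% of all genes. Changes of at least 2-fold were 25 upward and 5 downward, where all genes had 7.55% and 4.98%. The 5 that fell were Rxrg, Hopx, Foxo6, Ppara and Hif3a, with mean wt levels of 51, 117, 2.56, 57.1 and 1.14 CPM. Those that rose had a median wt level of 1.48 CPM, and only Creb3l2, Elf4 and Meox1 among them were above 10 CPM in wt.

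Nuclear receptors, which bind hormones, retinoids and lipids and set metabolic programmes, had more members that fell than rose: 3 rose, 13 fell and 12 were held, of 34 measured, and the median was -0.10. This did not hold with library totals, by which 9 rose and 6 fell with a median of 0.14. Rxrg, a retinoid X receptor that pairs with other receptors, ran from 48 to 54.3 CPM (median 50.6) in wt and from 12.4 to 17.6 CPM (median 15.4) in MstTg, with a log2 fold change of -1.72 (SE 0.076, adjusted p = 1.46e-18). Ppara, the receptor that drives fatty acid use in heart, ran from 53.4 to 64 CPM (median 55.9) in wt and from 21.8 to 30 CPM (median 24.5) in MstTg (-1.19, SE 0.079, adjusted p = 2.96e-14). Both groups were fully separated for these genes, as for 32.2% of all genes, and their choice by smallest p favours such a gap. The partner receptor Rxra fell by less, -0.62 ± 0.052, as did the thyroid hormone receptor Thrb, -0.47 ± 0.059. The glucocorticoid receptor Nr3c1 was held, with 120 to 143 CPM (median 128) in wt and 119 to 145 CPM (median 128) in MstTg and a 95% interval of -0.11 to 0.14, and its groups overlapped throughout.

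Factors of the cardiac lineage, which specify and maintain heart muscle, had a like balance: 5 rose, 13 fell and 8 were held, of 27 measured, with a median of -0.21 (9 rose and 7 fell with library totals, with a median of 0.03). Hopx, a homeodomain protein that binds no DNA and restrains serum response factor, ran from 102 to 131 CPM (median 117) in wt and from 33.9 to 52 CPM (median 39.9) in MstTg (-1.47, SE 0.084, adjusted p = 1.24e-15). Mef2a and Myocd, a muscle transcription factor and a coactivator of serum response factor, fell by 0.46 and 0.47 on the log2 scale. Gata4 and Mef2d were held, at -0.20 ± 0.062 and 0.04 ± 0.059, and the difference of Gata4 passed the test with an adjusted p of 0.00742 (edgeR). With library totals Gata4 turned to the other sign. Tbx18, of the outer layer and sinus node of the developing heart, rose by 0.74 ± 0.10.

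Basic leucine zipper factors, among them the AP-1, ATF and CREB proteins of stress and growth responses, had more members that rose than fell: 18 rose, 3 fell and 16 were held, of 41 measured, so that 43.9% rose against 28.2% of all genes and 20 were not called. Their median was 0.23. Besides Atf3, the factor of the unfolded protein response Creb3l2 ran from 45.8 to 53.6 CPM (median 52) in wt and from 96 to 122 CPM (median 103) in MstTg (1.05, SE 0.055, adjusted p = 1.30e-16). Atf4, the main factor of the integrated stress response, rose by 0.94 ± 0.091, and Mafk, a small MAF partner of NRF factors, by 0.91 ± 0.091. The 2 most abundant held members, Nfe2l1 (0.20 ± 0.064) and Atf6 (-0.21 ± 0.071), differed in sign. Factors of the NFAT and REL families, downstream of calcineurin and of NF-kappaB signalling, rose by small amounts: 11 rose, 1 fell and 1 was held, of 14 measured, and none reached 2-fold. Relb went from 7.66 ± 0.763 CPM in wt to 13.3 ± 1.83 CPM in MstTg (0.80 ± 0.10), Nfkb2 rose by 0.61 ± 0.070 and Nfkb1 by 0.34 ± 0.044. Of the SMAD, RUNX, NFI and E2F factors 13 rose, 2 fell and 9 were held, of 23 measured. That is 56.5% and 8.7%, against 28.2% and 26.8% of all genes. Runx2, the master factor of bone, ran from 0.591 to 1.55 CPM (median 1.04) in wt and from 3.82 to 5.47 CPM (median 4.75) in MstTg (2.18, SE 0.16, adjusted p = 2.74e-13), Runx1 rose by 1.01 ± 0.094 and the inhibitory Smad7 by 0.87 ± 0.089. Nfib and Nfix, the most abundant held members of the list, stayed at 0.13 ± 0.050 and -0.08 ± 0.065.

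Of the homeobox factors outside the HOX clusters more rose than fell: 13 rose, 3 fell and 7 were held, of 28 measured. Meox1, known for its part in the activation of cardiac fibroblasts, ran from 7.22 to 15.4 CPM (median 10.9) in wt and from 54.2 to 83.8 CPM (median 66.7) in MstTg (2.62, SE 0.13, adjusted p = 8.56e-16), and Msx1 rose by 1.66 ± 0.12. Prrx2, of mesenchymal cells, had 11 counts in all wt samples together and 281 in MstTg, a ratio of 17.7 (95% counting interval 9.75 to 35.9). Basic helix-loop-helix factors split, with 16 that rose and 13 that fell of 40 (23 rose and 4 fell with library totals). Epas1, the hypoxia-inducible factor 2 alpha of endothelium, ran from 382 to 514 CPM (median 418) in wt and from 198 to 252 CPM (median 225) in MstTg (-0.92, SE 0.064, adjusted p = 7.94e-14), beside endothelial markers of which 7 of 8 fell. Their summed level was 858 to 1070 CPM in wt and 647 to 752 CPM in MstTg, and their part in the fall was not tested. Its sister Hif1a was held, at 0.08 ± 0.067. Scx, the factor of tendon cells, ran from 3.2 to 4.45 CPM (median 3.6) in wt and from 8.4 to 21.1 CPM (median 14.5) in MstTg (1.93, SE 0.16, adjusted p = 1.78e-11), and Id4, an inhibitor of the family, rose by 2.01 ± 0.20.

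Of the ETS factors 4 rose, 6 fell and 9 were held, of 18 measured (10 rose and 0 fell with library totals). The widest rises were of Etv4, which ran from 0.137 to 0.413 CPM (median 0.255) in wt and from 2.98 to 5.3 CPM (median 3.86) in MstTg (3.93, SE 0.26, adjusted p = 6.41e-16), and its relative Etv5 (0.85 ± 0.10), both induced by FGF and MAP kinase signals in many tissues, and Elf4 (1.11 ± 0.074). Among the 18 KLF and SP factors 3 rose and 2 fell (9 rose and 1 fell with library totals), and only Klf5 changed by 2-fold or more (2.78 ± 0.30). Sox9 and Sox8 rose by 1.28 ± 0.16 and 2.67 ± 0.24, while Sox12 fell by 0.87 on the log2 scale. Foxo3, a factor restrained by AKT, went from 144 ± 12.2 CPM in wt to 102 ± 11.8 CPM in MstTg (-0.49 ± 0.071). Of 330 numbered zinc finger proteins, many of them repressors, 145 were held, 62 rose and 73 fell, which is 18.8% and 22.1%, against 28.2% and 26.8% of all genes (175 rose and 19 fell with library totals).

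**Figure D2:**
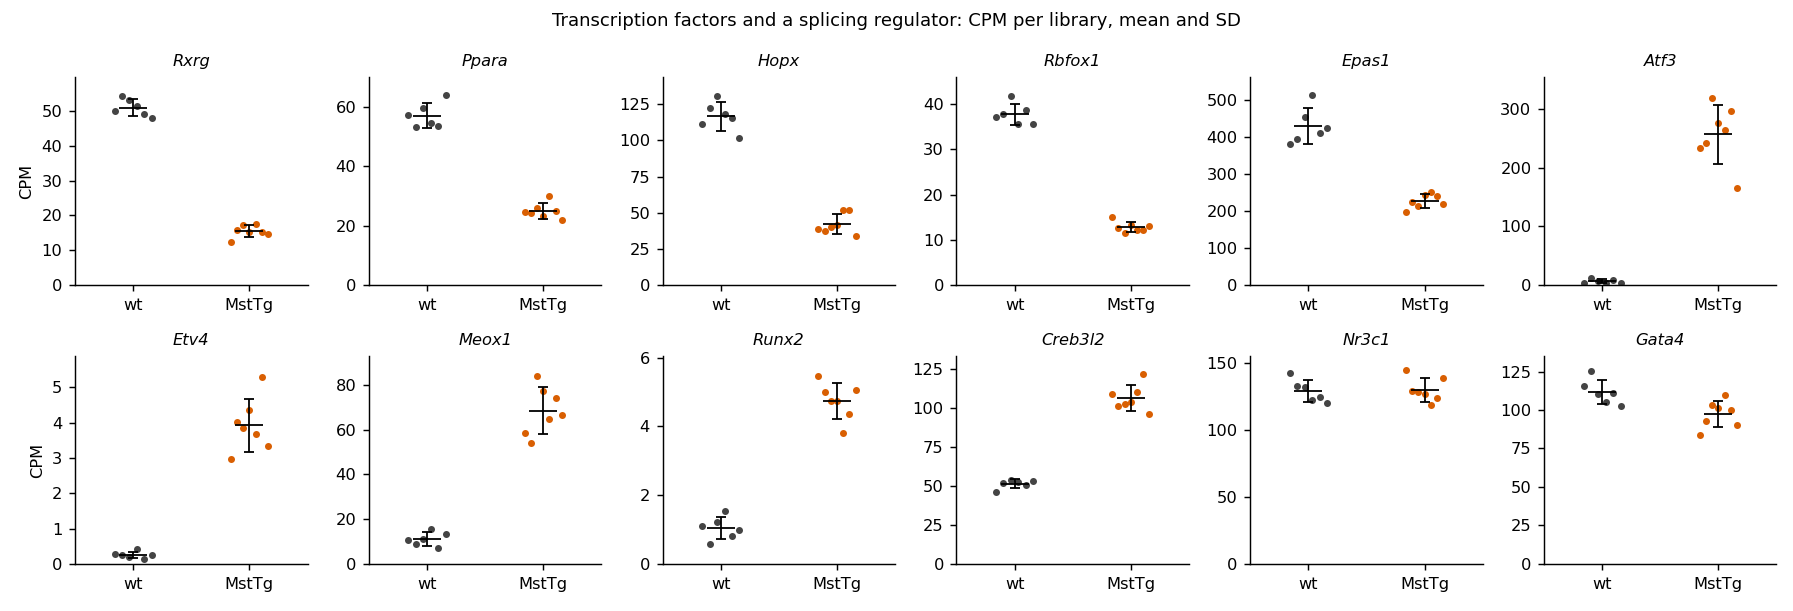
CPM of each sample (points) with the group mean and SD (bars) for 11 transcription factors and the splicing regulator Rbfox1, in wt (6 samples) and MstTg (7 samples), each panel on its own linear axis from 0. The groups do not overlap for the first 10 genes, and they overlap for Nr3c1 and Gata4. Over all genes 32.2% had groups that did not overlap, and the choice of called genes by small p or large change favours such a gap.

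Enzymes that write and erase histone methylation were held in 41 of 55 cases, against 31.9% of all genes, while 10 rose and 11 fell. With library totals 22 were held, 31 rose and 2 fell. The 1 member that changed by at least 2-fold was Smyd2, a methyltransferase that acts on the chaperone HSP90 in muscle, which ran from 62.5 to 74.1 CPM (median 67.8) in wt and from 25.5 to 34.4 CPM (median 30.9) in MstTg (-1.17, SE 0.063, adjusted p = 1.84e-16). Setd7 rose by 0.62 ± 0.060, and the abundant Kmt2d and Nsd1 were held at -0.14 ± 0.063 and 0.03 ± 0.050. Among deacetylases 5 rose, 7 fell and 7 were held, of 18 measured (10 rose and 5 fell with library totals). Those that fell most surely were Sirt5 (-1.05 ± 0.065) and Sirt3 (-0.82 ± 0.065), the mitochondrial desuccinylase and deacetylase, and Hdac11 (-1.27 ± 0.081).

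Splicing regulators divided by kind. The general SR and hnRNP proteins were held in 26 of 30 cases and in 18 with library totals (Hnrnpu 0.05 ± 0.060, Hnrnpk -0.06 ± 0.044). Of the regulators of muscle and other tissues 3 rose, 14 fell and 13 were held, of 25 measured, and their median was -0.19 (9 rose and 5 fell with library totals, with a median of 0.06). Rbfox1, which controls a large share of heart and brain exons, ran from 35.5 to 41.9 CPM (median 37.5) in wt and from 11.5 to 14.9 CPM (median 12.7) in MstTg (-1.56, SE 0.060, adjusted p = 5.49e-20). Khdrbs3 followed with -1.17 ± 0.053 and Mbnl2, a relative of the factor sequestered in myotonic dystrophy, with -0.41 ± 0.064. Rbm20, the regulator of titin splicing, differed by -0.23 ± 0.056, which passed the test but lay inside 1.3-fold, and it changed sign with library totals. Counts per gene say nothing of exon use.

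Among 23 imprinted genes 9 rose and 6 fell (14 rose and 5 fell with library totals). These shares were 39.1% and 26.1%, against 28.2% and 26.8% of all genes. The neighbours Peg3 and Zim1, expressed from opposite parental alleles of 1 domain, moved apart: Peg3 ran from 13.7 to 20.8 CPM (median 15.5) in wt and from 51 to 74.5 CPM (median 59.9) in MstTg (1.96, SE 0.12, adjusted p = 2.31e-13), and Zim1 ran from 3.75 to 5.76 CPM (median 4.62) in wt and from 0.954 to 1.39 CPM (median 1.14) in MstTg (adjusted p = 1.15e-12). The abundant Igf2r was held at 0.01 ± 0.058. Of 39 named long noncoding RNAs 12 rose and 3 fell, against 28.2% and 26.8% of all genes. Pvt1, next to Myc, went from 1.41 ± 0.423 CPM in wt to 5.12 ± 0.375 CPM in MstTg (1.86 ± 0.14). The libraries mark strand, but the strand setting of the counting is not given in the sources used here, so reads of antisense partners may be mixed.

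MicroRNAs were not measured here, but many are cut from the introns or exons of host genes, and 31 of the 35 measured genes listed as hosts contained a RefSeq hairpin on the same strand. Of these hosts 12 rose, 8 fell and 9 were held. Of all 35 listed, 37.1% rose, 25.7% fell and 31.4% were held, against 28.2%, 26.8% and 31.9% of all genes. With library totals 20 of the 35 rose and 4 fell. Related hosts often carry microRNAs with the same seed, the bases 2 to 8 that pair with targets, and 16 hosts shared a seed with another. The mature sequences of 3 such families are shown because their hosts did not move together (RefSeq, GRCm38.p6, 5′ to 3′, seed in capitals).
miR-107-3p in Pank1 (chr19:34820700-34820722): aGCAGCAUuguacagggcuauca
miR-103-3p in Pank2 (chr2:131288103-131288125) and Pank3 (chr11:35782447-35782469): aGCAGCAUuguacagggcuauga
miR-208a-3p in Myh6 (chr14:54949072-54949093): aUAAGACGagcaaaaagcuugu
miR-208b-3p in Myh7 (chr14:54975710-54975731): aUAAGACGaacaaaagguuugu
miR-26b-5p in Ctdsp1 (chr1:74394324-74394344): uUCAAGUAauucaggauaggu
miR-26a-5p in Ctdsp2 (chr10:126995543-126995564) and Ctdspl (chr9:119031811-119031832): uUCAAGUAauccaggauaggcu

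The pantothenate kinases, which make the first committed step to coenzyme A, differed within the family. Pank1 ran from 60.3 to 69.2 CPM (median 65.4) in wt and from 19.5 to 22 CPM (median 20.4) in MstTg (-1.64, SE 0.058, adjusted p = 7.37e-21), whereas Pank2 and Pank3 were held, at 0.15 ± 0.061 and -0.07 ± 0.060. These genes were chosen after their values were seen, as were the other hosts named here. The seed GCAGCAU was thus carried by 1 host that fell and by 2 that were held. Myh6, the fast myosin heavy chain of the adult mouse ventricle, was held at -0.20 ± 0.082, and Myh7, the slow chain, ran from 85.1 to 609.7 CPM (median 265) in wt and from 994 to 2866 CPM (median 1570) in MstTg (2.45, SE 0.28, adjusted p = 2.74e-07). The coding sequences of these genes are close to identical over long stretches, and reads that the counting could not place are a source of uncertainty for both. The small phosphatases Ctdspl and Ctdsp2 rose by 0.65 ± 0.079 and 0.29 ± 0.059, while Ctdsp1 differed by -0.27 ± 0.064. Whether the microRNAs followed their hosts was not measured.

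In the MAP kinase cascade 14 rose, 14 fell and 13 were held, of 38 measured, which is 36.8% in each direction against 28.2% and 26.8% of all genes (20 rose and 4 fell with library totals). The atypical Mapk4 ran from 8.78 to 10.4 CPM (median 9.85) in wt and from 29.5 to 36 CPM (median 33.7) in MstTg (1.73, SE 0.086, adjusted p = 3.93e-17), the muscle p38 isoform Mapk12 rose by 1.34 ± 0.084, and the JNK3 gene Mapk10 fell by 1.59 on the log2 scale (SE 0.11). Of the kinases driven by calcium, cyclic AMP and lipids 13 rose, 9 fell and 5 were held, of 29 measured (15 rose and 5 fell with library totals). Prkce, a protein kinase C known for its part in protection from ischaemia, went from 59.6 ± 3.81 CPM in wt to 33.5 ± 2.26 CPM in MstTg (-0.83 ± 0.056), Camk2a fell alike (-0.90 ± 0.063), and Camkk1, an upstream activator of CaM kinases, rose by 2.03 ± 0.15. The AMPK, PI3K, AKT and MTOR genes were held in 21 of 42 cases, 12 rose and 15 fell (14 held, and 24 rose and 9 fell with library totals). The 4 with the smallest p all fell: Pik3r1, the regulatory subunit of PI3 kinase, ran from 175 to 235 CPM (median 190) in wt and from 79.7 to 93.2 CPM (median 87.8) in MstTg (-1.19, SE 0.065, adjusted p = 2.58e-16), and Prkab1, Akt2 and Prkaa2 changed by -0.90 ± 0.061, -0.71 ± 0.062 and -0.68 ± 0.062.

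Of 18 dual specificity phosphatases, many of which switch off MAP kinases, 6 rose and 5 fell (10 rose and 4 fell with library totals). These shares, 33.3% and 27.8%, were near the 28.2% and 26.8% of all genes. Dusp10 ran from 6.88 to 10 CPM (median 8.28) in wt and from 18.7 to 26.2 CPM (median 23) in MstTg (1.45, SE 0.10, adjusted p = 1.65e-13) and Dusp27, of muscle, rose by 1.26 ± 0.079, while Dusp3 was held. RGS proteins, which end G protein signals, included Rgs5, a marker of pericytes, which ran from 495 to 595 CPM (median 574) in wt and from 202 to 325 CPM (median 269) in MstTg (-1.04, SE 0.093, adjusted p = 5.61e-11). Of the mural cell markers as a whole 2 rose and 3 fell of 8, and their summed level was 2538 to 2892 CPM in wt and 3688 to 5088 CPM in MstTg, and their part in the fall of Rgs5 was not tested. Of 52 orphan and adhesion receptors 16 rose and 15 fell, near the 28.2% and 26.8% of all genes (22 rose and 11 fell with library totals). Gpr22, a receptor found mainly in heart and brain, ran from 33.5 to 60.7 CPM (median 46.5) in wt and from 6.91 to 12.6 CPM (median 10.3) in MstTg (-2.20, SE 0.16, adjusted p = 1.20e-11), and Gpr157 fell by 0.88 on the log2 scale.

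The genes of 8 families of secreted and membrane signals were held in 13 of 128 cases (10.2%), against 31.9% of all genes. Many have low levels, where intervals are wide. From 1 to 10 CPM 3 of 49 were held (6.12%, against 19.7% of all genes in that band), and from 10 to 100 CPM 9 of 56 (16.1%, against 49%). Of them 54 rose and 38 fell, and 42.2% changed by more than 1.3-fold against 25.5% of all genes. Their median size of change was 0.483 on the log2 scale, and that of all genes 0.288. Beside these changes, 6 of 6 fibroblast markers rose, with a summed level of 534 to 729.8 CPM in wt and 1595 to 1877 CPM in MstTg, and their part in the changes was not tested.

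Among growth factors the same family often held a rise and a fall. The receptor Fgfr1 ran from 28.7 to 42.5 CPM (median 34.7) in wt and from 70.3 to 93.3 CPM (median 82.7) in MstTg (1.23, SE 0.076, adjusted p = 8.03e-15), while Fgf16, a ligand made by heart muscle, ran from 7.64 to 13.7 CPM (median 10.8) in wt and from 2.61 to 4.17 CPM (median 2.9) in MstTg (-1.70, SE 0.13, adjusted p = 7.21e-13). In the IGF system the binding proteins Igfbp6 and Igfbp7 rose by 2.08 ± 0.13 and 1.58 ± 0.10 and the receptor Igf1r by 0.88 ± 0.066. Igfals, which stabilises circulating IGF, fell by 2.10 on the log2 scale, and Igfbp4 was held. Among the EGF ligands Hbegf ran from 9.88 to 14.7 CPM (median 11.4) in wt and from 29.8 to 42.8 CPM (median 40.3) in MstTg (1.74, SE 0.087, adjusted p = 4.75e-17). Ereg had 19 counts in wt and 324 in MstTg, a ratio of 11.8 (95% counting interval 7.45 to 19.9), whereas Egf itself fell, from 22.6 ± 7.67 CPM in wt to 6.37 ± 2.04 CPM in MstTg (-1.83 ± 0.25). Every measured member of that family was called, 8 higher and 5 lower, and without the 4 samples of high Myl4 the number higher was 5.

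Inhba, the beta A subunit of activin, ran from 0.98 to 1.58 CPM (median 1.24) in wt and from 9.19 to 12.3 CPM (median 11.1) in MstTg (3.10, SE 0.14, adjusted p = 1.01e-18), and Bmp4 rose by 1.37 ± 0.12. Of the Wnt ligands and frizzled receptors 7 rose, 3 fell and 2 were held, of 16 measured. That is 43.8% and 18.8%, against 28.2% and 26.8% of all genes. Those that rose with the smallest p were the receptors Fzd7 (2.21 ± 0.080), Fzd2 (2.44 ± 0.12) and Fzd1 (1.12 ± 0.078). Semaphorins and their plexin receptors, which guide axons and vessels, split: 10 rose, 11 fell and 4 were held, of 27 measured (12 rose and 5 fell with library totals). With TMM factors the shares were 37% and 40.7%, against 28.2% and 26.8% of all genes. The class 3 ligands Sema3c, Sema3d and Sema3e rose by 1.58 ± 0.060, 2.31 ± 0.13 and 4.32 ± 0.27, whereas the receptor Plxnb1 ran from 50.5 to 72.1 CPM (median 58.1) in wt and from 18.1 to 22.2 CPM (median 20.8) in MstTg (-1.55, SE 0.084, adjusted p = 2.11e-16). In the ephrin family the ligand Efnb3 ran from 38.1 to 68.2 CPM (median 54.2) in wt and from 5.05 to 9.2 CPM (median 6.3) in MstTg (-2.98, SE 0.14, adjusted p = 1.87e-16) and the receptor Epha4 fell by 1.38, while Efna5 rose by 0.87 ± 0.077. Tnfrsf12a, the receptor of the cytokine TWEAK, ran from 14.6 to 30.6 CPM (median 24.9) in wt and from 78.5 to 114 CPM (median 100.1) in MstTg (2.04, SE 0.15, adjusted p = 1.05e-11).

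The largest median of the lists with 10 or more measured genes was that of genes known best from tendon and cartilage, a list drawn up with earlier results of these data known: 17 of 18 rose and none fell, with a median of 3.22. Mgp, an inhibitor of calcification, ran from 49.8 to 69.2 CPM (median 61.8) in wt and from 338 to 458 CPM (median 386) in MstTg (2.73, SE 0.086, adjusted p = 3.84e-21). Scx, described above, belongs to the same list. The rise of these genes stood beside that of the fibroblast markers, whose part in it was not tested. Genes of skeletal muscle contraction and its junctions moved both ways, 10 up and 6 down of 19. Myom3, an M-band protein of some skeletal fibres, ran from 2.1 to 3.05 CPM (median 2.59) in wt and from 81.3 to 130.5 CPM (median 109) in MstTg (5.35, SE 0.12, adjusted p = 2.08e-25), and Ncam1, of the neuromuscular junction, ran from 3.43 to 6.16 CPM (median 4.26) in wt and from 49.1 to 68.3 CPM (median 57.9) in MstTg (3.73, SE 0.14, adjusted p = 2.25e-18). The kinase Mylk4 fell by 2.37 on the log2 scale, and the ubiquitin ligase Trim63 was held at -0.09 ± 0.065. Of 5 skeletal muscle markers only 1 is in the table, at summed levels of at most 1.35 CPM.

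Calls in the cytoskeletal families were more often higher than lower. This held with library totals too, but these made 78.2% of all calls higher, so they are no separate check of the direction. Of 18 intermediate filament genes 10 rose, none fell and 5 were held. Nes, which encodes nestin of regenerating muscle and neural precursors, ran from 41 to 55.5 CPM (median 50.2) in wt and from 364 to 470.4 CPM (median 445) in MstTg (3.13, SE 0.085, adjusted p = 1.32e-22). Des, the main filament of muscle cells, ran from 1267 to 1486 CPM (median 1331) in wt and from 2802 to 4272 CPM (median 3604) in MstTg (1.39, SE 0.083, adjusted p = 4.34e-15), and its partner Synm rose by 1.56 ± 0.073. Krt18, a keratin of simple epithelia, rose by 3.51 ± 0.28. Of the LIM domain proteins 14 rose, 6 fell and 5 were held, of 27 measured. Fhl1, which senses strain at the titin filament, ran from 78 to 87.6 CPM (median 81.9) in wt and from 849 to 1071 CPM (median 1016) in MstTg (3.58, SE 0.071, adjusted p = 4.22e-26), Pdlim3 and Lmcd1 rose by 3.08 ± 0.13 and 2.51 ± 0.12, and Ldb3, a core Z-disc protein, was held at 0.06 ± 0.060. Motor proteins outside the muscle myosins rose in 37 of 66 cases, against 28.2% of all genes. Kif1a, a kinesin best known from neurons, rose by 3.67 ± 0.15 and Kif3c by 1.13 ± 0.073, whereas Myo5c fell by 2.24.

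Substrate adaptors of ubiquitin ligases showed unlike members. Klhl41, which stabilises nebulin in skeletal sarcomeres, ran from 51.8 to 70.4 CPM (median 57.7) in wt and from 415 to 514 CPM (median 484) in MstTg (3.005, SE 0.071, adjusted p = 2.65e-24), Klhl23 fell from 33.7 ± 1.38 CPM in wt to 12.8 ± 0.853 CPM in MstTg, and Klhl31 was held at -0.04 ± 0.052. Of 16 ASB proteins, a group rich in striated muscle, 9 fell and 2 rose (0 rose without the 4 samples of high Myl4, and 6 rose and 8 fell with library totals). Asb14, Asb10 and Asb15 changed by -1.21 ± 0.057, -1.08 ± 0.070 and -0.69 ± 0.068. Serpins, mostly inhibitors of proteases, rose in 12 of 21 cases and fell in 1, with Serpinf1 at 2.44 ± 0.083 and Serpinb6a at 1.23 ± 0.057. Serpinb1c rose from 18 counts in wt to 993 in MstTg, and its near copies in the same cluster make its counts uncertain. Among the lysosomal cathepsins the abundant Ctsd and Ctsb were held (-0.05 ± 0.074 and -0.07 ± 0.069), while Ctsk, a collagen-cleaving protease, and Ctsz rose by 1.78 ± 0.12 and 1.59 ± 0.094.

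Of 209 solute carriers outside the mitochondrial family, 66 rose and 47 fell, a called share of 54.1% that is near the 55% of all genes (105 rose and 32 fell with library totals). Slc24a2, a sodium, calcium and potassium exchanger of retina and brain, ran from 2.37 to 4.39 CPM (median 2.94) in wt and from 65.8 to 81.5 CPM (median 71.6) in MstTg (4.49, SE 0.14, adjusted p = 1.68e-21). Slc22a4, a transporter of ergothioneine, rose by 2.299 ± 0.084, and Slc36a2, which carries small amino acids, fell by 3.37. The stretch-gated channel Piezo2 ran from 1.18 to 2.33 CPM (median 1.63) in wt and from 11.8 to 18 CPM (median 15.1) in MstTg (3.16, SE 0.18, adjusted p = 5.24e-16). Of 11 aquaporins and connexins 6 fell and 2 rose (4 rose and 4 fell with library totals). Those that fell include the glycerol channel Aqp7 (-1.94 ± 0.12) and the water channel Aqp1 of endothelium (-0.97 ± 0.14). Atp6v0a4, a subunit of the proton pump known from kidney, rose by 3.13 ± 0.17. No glutathione transferase or UDP glycosyltransferase rose, and 13 of 24 fell (with library totals 2 rose and 9 fell). Gstk1, of mitochondria and peroxisomes, ran from 28.7 to 35.3 CPM (median 34) in wt and from 7.22 to 10.5 CPM (median 9.13) in MstTg (-1.90, SE 0.083, adjusted p = 1.14e-18), and Gsto1 was held at 0.07 ± 0.064.

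Close relatives moved in opposite directions in several families. The pairs below were chosen after their values were seen. Rpl3l, the form of ribosomal protein L3 found in adult striated muscle, ran from 137 to 165 CPM (median 149.8) in wt and from 23.1 to 32.6 CPM (median 28.2) in MstTg (-2.43, SE 0.076, adjusted p = 6.19e-22), and the common form Rpl3 ran from 54.8 to 82.3 CPM (median 68.4) in wt and from 119.5 to 152 CPM (median 136) in MstTg (0.99, SE 0.073, adjusted p = 4.51e-13). The translation factor Eef1a2, of adult muscle and neurons, went from 1010 ± 65 CPM in wt to 714 ± 105 CPM in MstTg (-0.50 ± 0.075), and Eef1a1, of most other cells, ran from 263 to 368 CPM (median 291) in wt and from 648 to 729 CPM (median 697) in MstTg (1.22, SE 0.063, adjusted p = 1.41e-16). Processed copies of Eef1a1 and Rpl3 elsewhere in the genome can take or lend reads. Of the calcium release channels, Ryr2, the cardiac form, ran from 4227 to 4815 CPM (median 4508) in wt and from 2706 to 3044 CPM (median 2757) in MstTg (-0.66, SE 0.060, adjusted p = 4.36e-11), and Ryr3 ran from 1.45 to 2.96 CPM (median 2.06) in wt and from 107 to 181 CPM (median 145) in MstTg (6.08, SE 0.18, adjusted p = 6.17e-21). In each of these genes the groups were separated, as in 32.2% of all genes. Ryr1, of skeletal muscle, fell from 2.53 ± 1.86 CPM in wt to 0.403 ± 0.125 CPM in MstTg (-2.62 ± 0.48).

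**Figure D3:**
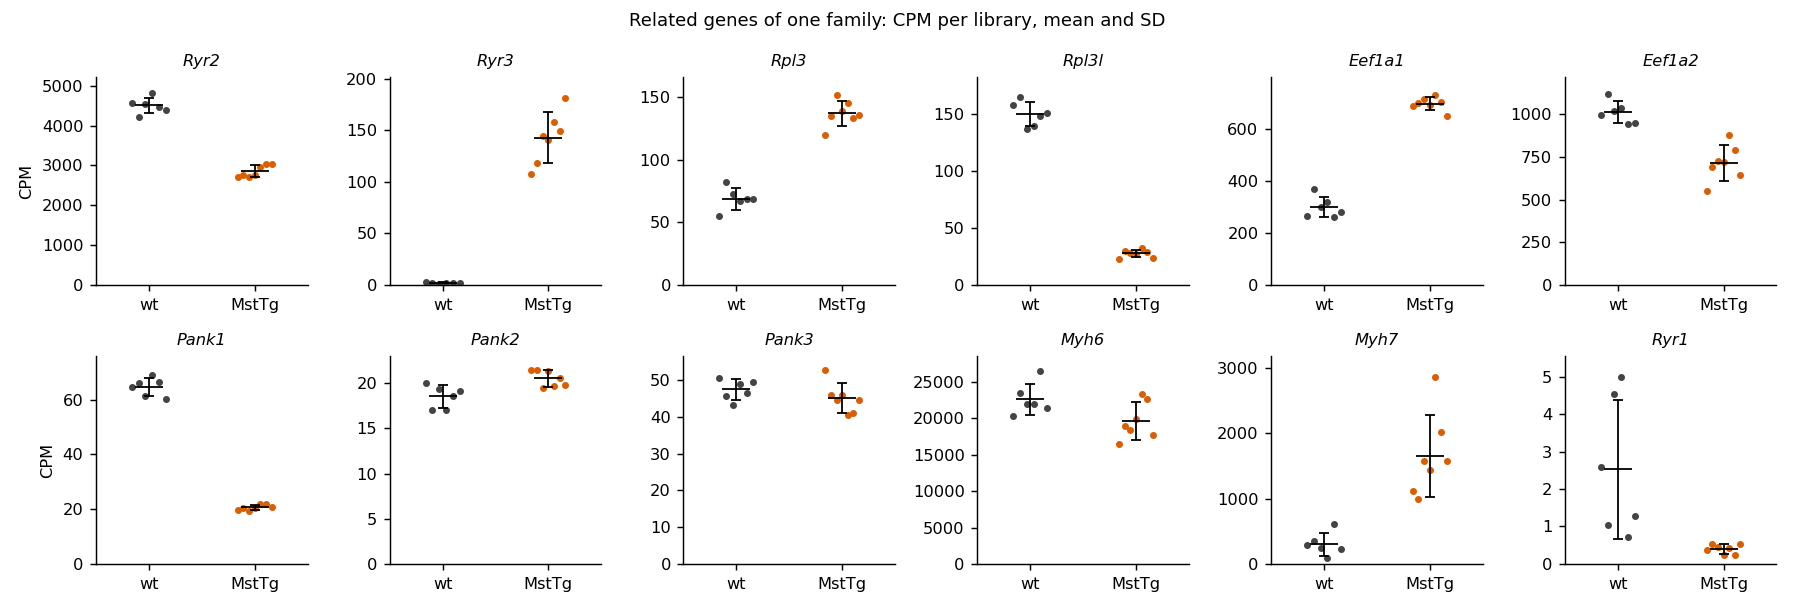
CPM of each sample (points) with the group mean and SD (bars) for 5 sets of related genes in wt (6 samples) and MstTg (7 samples), each panel on its own linear axis from 0. Ryr3, Rpl3 and Eef1a1 are higher in every MstTg sample than in any wt sample, their relatives Ryr2, Rpl3l and Eef1a2 are lower in every one, and Pank2, Pank3 and Myh6 were held.

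Over all 20 lists of cell machinery 437 of 729 genes (59.9%) were held, against 31.9% of all genes. Of the 729 genes 103 rose, 260 fell and 94 changed beyond 1.3-fold. The held share was higher once the mitochondrial and peroxisomal lists were left out. In 17 lists of ribosomal, proteasomal, transcriptional, splicing, transport and similar complexes outside mitochondria and peroxisomes, 418 of 615 genes (68%) were held, against 31.9% of all genes. Changes beyond 1.3-fold were 35 (5.69%), against 25.5% of all genes. Intervals are narrower for abundant genes. At 10 to 100 CPM 73% of the 429 genes of these 17 lists were held and 49% of all genes. With library totals in place of TMM factors the shares were 48.5% for the 17 lists and 22.7% of all genes. Held here means held relative to the bulk of transcripts, since sequencing gives no absolute amount.

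Of 78 cytosolic ribosomal proteins 66 were held (35 with library totals), such as Rpl4 (0.03 ± 0.052) and Rplp0 (-0.03 ± 0.073), with Rpl3 and Rpl3l as the widest exceptions. The chaperonin and prefoldin were held in 12 of 13 members, the cytosolic aminoacyl-tRNA synthetases in 17 of 20, and Mediator and Integrator in 32 of 41. The proteasome was less even. Of 46 subunits 28 were held, among them Psmd2 (-0.07 ± 0.056), while Psmd8 and Psmd11 of the regulatory cap rose by 0.66 ± 0.065 and 0.53 ± 0.047 and the activator subunit Psme1 fell by 0.79. Mitochondrial and peroxisomal machinery formed the contrast. Of 76 mitochondrial ribosomal proteins 69 fell and none rose (57 and 5 with library totals), with Mrps35 at -1.07 ± 0.052. Of 21 import subunits 16 fell (9 with library totals), and of 17 peroxins 11 (6 with library totals), among them Pex11a (-1.45 ± 0.090), which promotes the division of peroxisomes.

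**Figure D4:**
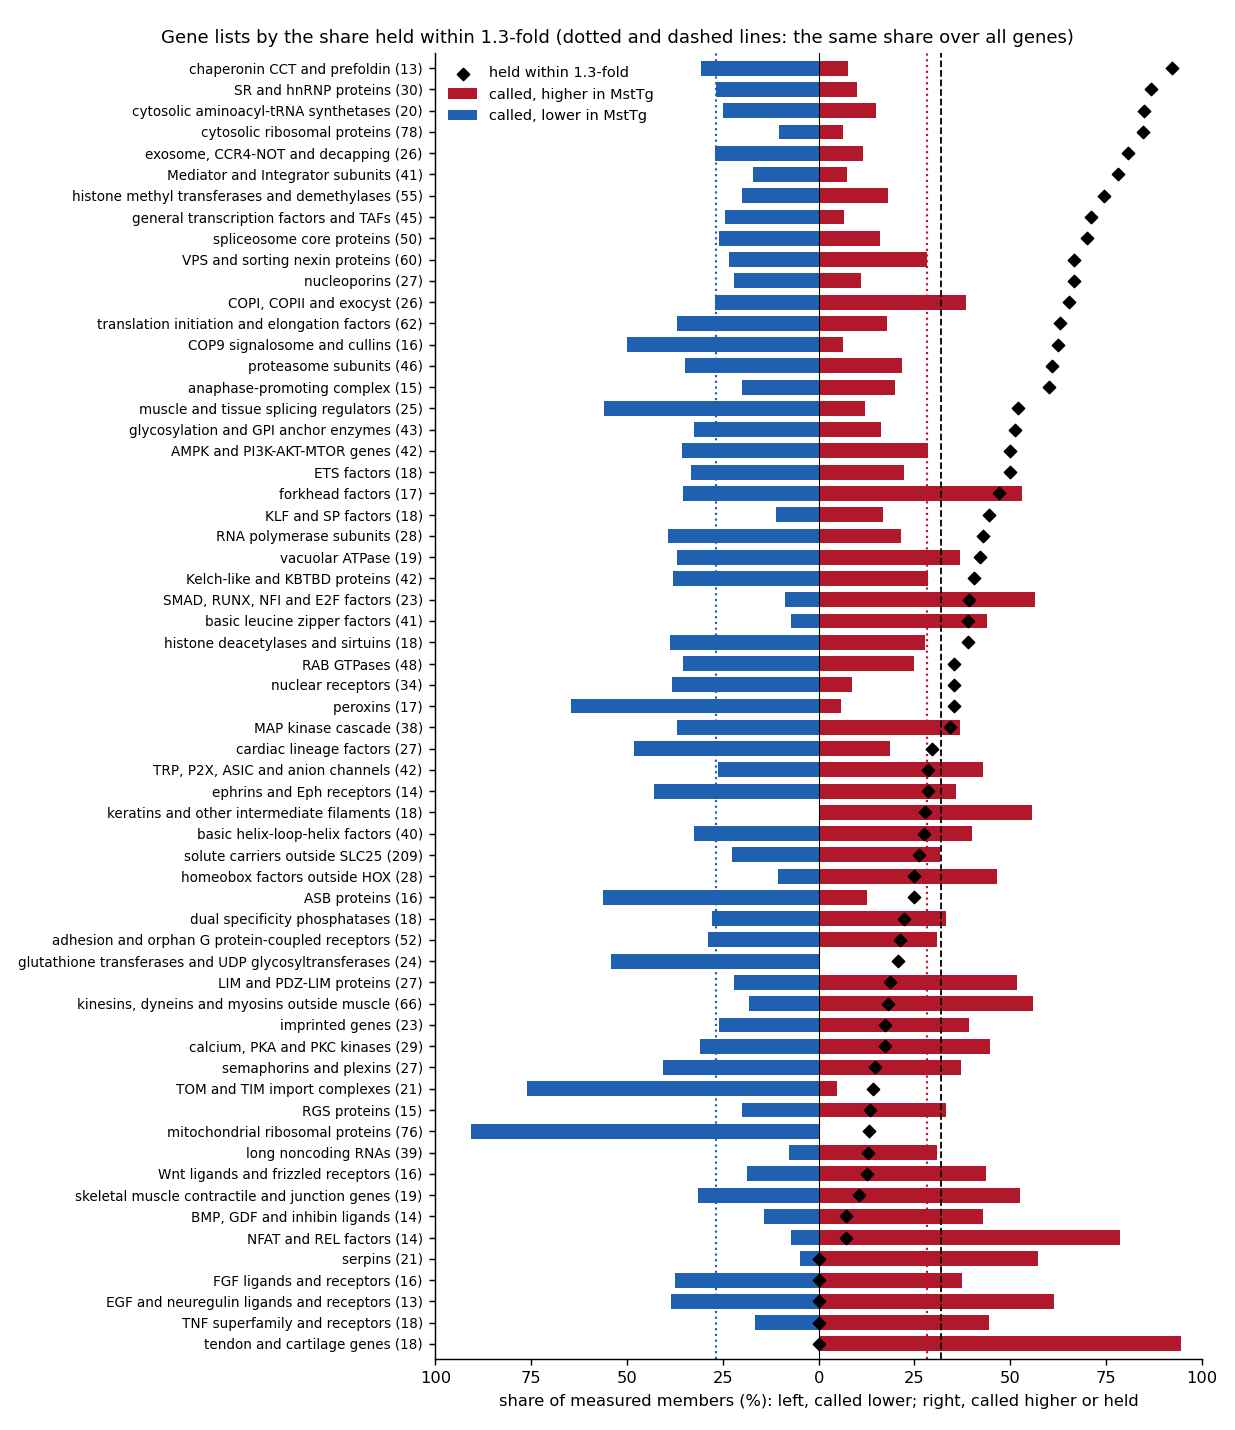
Shares of the measured members (number in brackets) of each gene list that were called lower in MstTg (bars to the left), called higher (bars to the right) or held within 1.3-fold (diamonds), with lists ordered by the held share. The red and blue dotted lines mark the shares called among all genes and the dashed line the held share of all genes. Machinery lists fill most of the top, and the ligand lists, serpins and tendon genes lie at the bottom.

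Of 32 measured genes in common use as references for quantitative PCR, 15 were held, 17 were called and 7 changed beyond 1.3-fold. The called share of 53.1% and the changed share of 21.9% were near those of all genes, 55% and 25.5%. Among the held were Actb (0.04 ± 0.064, interval -0.09 to 0.17), Gpi1 (-0.05 ± 0.058), Hprt (0.10 ± 0.068), Ywhaz (0.11 ± 0.049), Vcp (-0.09 ± 0.046), Tbp (0.04 ± 0.091) and Chmp2a (-0.003 ± 0.075). Gapdh, the glycolytic enzyme used most widely, went from 730.2 ± 73.4 CPM in wt to 566 ± 49.9 CPM in MstTg (-0.37, SE 0.075, adjusted p = 9.48e-05), and its groups overlapped. Sdha, a subunit of respiratory complex II, ran from 835 to 1074 CPM (median 949) in wt and from 370.3 to 414 CPM (median 396) in MstTg (-1.26, SE 0.054, adjusted p = 6.87e-19). Tubb5, B2m and Polr2a rose by 0.65 ± 0.072, 0.60 ± 0.13 and 0.52 ± 0.064. Eef1a1 had the widest rise of the set.

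**Figure D5:**
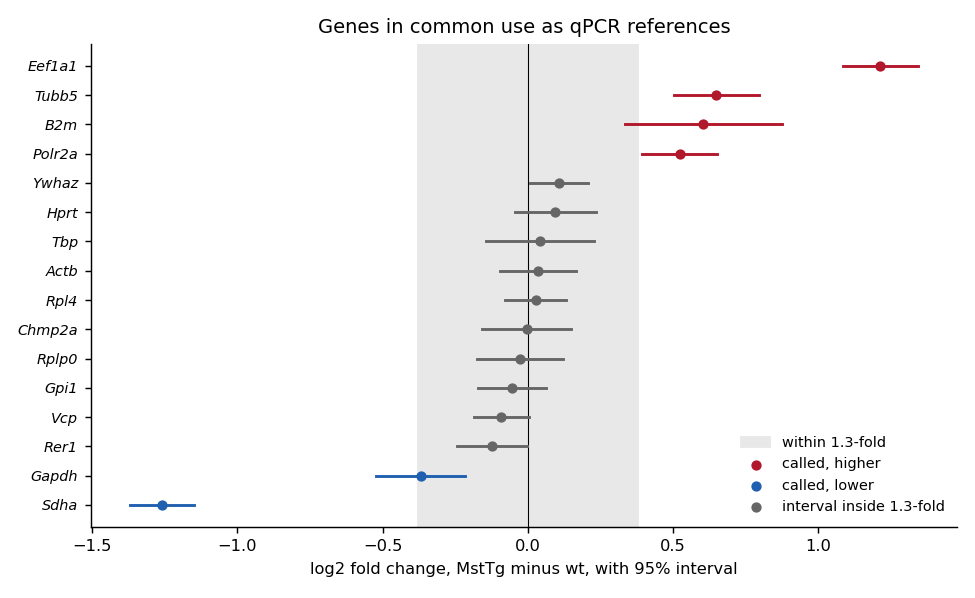
Log2 fold change of MstTg against wt (points) with its 95% interval (lines) for the 16 reference genes named in the text, of 32 measured, with the band of 1.3-fold either way shaded. The 10 grey intervals lie inside the band, and Sdha and Eef1a1 lie farthest out on either side.

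The 8 genes of at least 10 CPM with the narrowest intervals inside 1.3-fold were Clcn4, Ppp6r3, Pdcd6ip, Mon2, Rbbp4, Tnks, Mark3 and Nbr1. Clcn4, an endosomal chloride and proton exchanger, had 67.3 to 71.7 CPM (median 71) in wt and 69 to 74.3 CPM (median 69.8) in MstTg, and its interval ran from -0.07 to 0.09. Rbbp4, a histone chaperone of many chromatin complexes, had 56.3 to 64 CPM (median 59.3) in wt and 58.2 to 64.6 CPM (median 61.5) in MstTg and an interval of -0.05 to 0.12. Ppp6r3, a subunit of protein phosphatase 6, had an interval of -0.37 to -0.22, so that its fall was both called and small.

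The 250 bases before the start of each gene were searched for short motifs in the RefSeq promoter table (GRCm38.p6), for the 8341 genes with a single listed start. The letters CCGGAAG, bound by ETS factors, were searched on both strands and were present in 18.5% of the promoters of held genes, 5.56% of those of genes called at least 2-fold higher and 7.82% of those at least 2-fold lower, with 13.8% over all. Promoters of held genes also hold more CG pairs, a median of 18 against 12 and 11. Among promoters with 20 or more CG pairs the shares were 19.8%, 7.48% and 14.9% in the same order. The letters TGACTCA, bound by AP-1, were in 1.94%, 5.07% and 2.61%, with 2.96% over all. The letters GGAATG, bound by TEAD factors, were in 8.92%, 12.1% and 13%, with 10.5% over all. A match is a run of letters and was not tested as a site.

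Promoters of 3 genes are printed as examples, on the gene's strand with the matched letters in capitals. Psmd2 and Rer1 are held genes with an ETS match, and Gpr39, an orphan receptor that had 29 counts in wt and 423 in MstTg, has an AP-1 match.
Psmd2, chr16:20651402-20651651 (plus strand): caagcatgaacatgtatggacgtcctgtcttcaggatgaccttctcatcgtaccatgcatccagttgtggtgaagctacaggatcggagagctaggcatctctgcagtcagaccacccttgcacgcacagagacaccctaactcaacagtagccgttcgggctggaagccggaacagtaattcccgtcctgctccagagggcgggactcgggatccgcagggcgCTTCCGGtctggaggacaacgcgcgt
Rer1, chr4:155086354-155086603 (minus strand): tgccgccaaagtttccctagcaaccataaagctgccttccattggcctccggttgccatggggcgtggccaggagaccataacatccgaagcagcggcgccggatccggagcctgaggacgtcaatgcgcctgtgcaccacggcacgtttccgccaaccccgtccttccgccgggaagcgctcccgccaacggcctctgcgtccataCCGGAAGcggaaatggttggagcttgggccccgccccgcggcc
Gpr39, chr1:125676746-125676995 (plus strand): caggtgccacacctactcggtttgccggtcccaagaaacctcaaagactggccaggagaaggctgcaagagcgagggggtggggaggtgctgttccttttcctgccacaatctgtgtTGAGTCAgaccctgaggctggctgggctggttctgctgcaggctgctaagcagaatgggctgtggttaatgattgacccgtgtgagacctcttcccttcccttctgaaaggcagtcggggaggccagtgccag

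The response was set beside that of the galectin-3 knockout, Mst1Gal3 against Gal3Ko, which shares no sample with MstTg against wt. Of the 1911 genes called at least 2-fold here (12.5% of all), 1894 had the same sign in the knockout and 1799 (94.1%) were also called there. The same shares over all genes are not given here, so these counts have no base to be read against. The test of the difference itself, the interaction in edgeR, called 100 genes (0.656%), and 84 of these had the smaller change in the knockout. The share with a smaller change over all genes is not given for this count either. Of the 100 genes 93 were called in MstTg against wt, and such a selection favours a smaller change in the other comparison. Genes named above that passed the interaction test were Rxrg, at -1.72 with galectin-3 and -1.24 without, Creb3l2 at 1.05 and 0.73, Mgp at 2.73 and 2.22, Gstk1 at -1.90 and -1.27, Rpl3l at -2.43 and -1.82, Fndc5 at -2.48 and -1.95, and Myh7 at 2.45 and 0.35. The number called by the interaction depended on single samples: it was 63 without MstTg replicate 1, 189 without MstTg replicate 5 and 43 without the 4 samples of high Myl4.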

How the data were processed

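Total RNA of left ventricle was extracted with Trizol and a column kit, depleted of ribosomal RNA and made into strand-marking libraries, per the labels' protocols. Per the submitters' processing notes the tools were bcl2fastq 2.19.1.403, STAR and featureCounts with the GRCm38 build. Neither the strand setting nor the annotation or other versions are given in the sources used here. The deposited table holds the authors' raw read counts per gene, as whole numbers with no normalization, and all 26 columns were mapped to samples by name. Genes with near-identical copies or antisense partners may share reads.

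All 26 samples were fitted in edgeR 4.0.16 (R 4.3.3) with TMM factors, group means and the robust quasi-likelihood test, with Benjamini-Hochberg adjustment over 15249 genes and a threshold of 0.05. Changes beyond 1.3-fold were tested with glmTreat. A gene was held where its 95% interval (Wald standard error) lay inside that bound. No pair of same-group samples was alike within sampling noise, with a chi-square of at least 4.9 per degree of freedom. The calls, the bound and the intervals were tried on simulated data, and the interaction was not. The simulation changed few genes, equally many up and down, whereas 55% of genes were called here. It therefore does not show how TMM scaling performs under a response as broad as this one. One count in the smallest sample was 0.0502 CPM. Ratios of summed counts have exact 95% intervals, and these and the floor of 3 counts cover counting error only. Alternatives were RLE factors, library totals, totals without mitochondrial genes, a minimum of 1 CPM, a fit of wt and MstTg alone, the replicate number as a block, each replicate left out, DESeq2 1.42.0, limma-voom (limma 3.58.1), bounds of 1.2-fold and 1.5-fold and, chosen after seeing the data, the omission of 4 samples of high Myl4.

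The members and gene lists were chosen with earlier results of these data known, and the name patterns of 3 lists (RAB GTPases, TRP channels, protein kinase C) were corrected after the data were seen. Genes named in the text are taken from Stk4 and Lgals3, the 2 largest rises and falls per band, up to 4 called members with the smallest p and up to 2 most abundant held members per list, the reference genes, and the 8 narrowest held genes of at least 10 CPM. Transcription factors of at least 2-fold and the paralogs and microRNA hosts were named after their values were seen. Positions are from GENCODE M21, which held 15200 of the gene identifiers. Some genes that these rules select are not reported here.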

Additional observations from a re-analysis of the deposited data

Results flagged for a closer look

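Single samples stood apart within their group, by the gap to the nearest sample against the range of the group (Dixon's 95% limit), for 20 gene and group pairs and for 1 share. Chance alone gives about 1 in 20, which is 19.1 of the 382 groups tested. In wt, replicate 2 was high for Rplp0 (370.1 CPM), Rpl4 (281.7 CPM) and Igfbp4 (88.55 CPM) and low for Nsd1 (159.9 CPM). Replicate 1 of wt was low for Creb3l2 (45.75 CPM) and Sema3e (0 CPM), replicate 4 was high for Lmcd1 (39.36 CPM), replicate 5 for Peg3 (20.75 CPM) and replicate 6 for Stk4 (26.06 CPM).

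In MstTg, replicate 1 had the share of mitochondrial transcripts of 23.35%, was low for Igfbp4 (47.88 CPM) and was high for Sema3d (25.48 CPM) and Tnks (119.1 CPM). Replicate 5 was high for Gpr157 (41.73 CPM) and was the only sample of its group with Helt counts (0.06155 CPM). Replicate 7 was high for Ces1d (8.026 CPM) and low for Prkab1 (11.32 CPM) and Slc22a4 (21.48 CPM). Replicate 2 was low for Epha4 (29.17 CPM), replicate 3 high for Tmprss13 (0.1545 CPM) and replicate 6 high for Myocd (88.26 CPM).

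The Mst-1 response of 7 named genes differed between the galectin-3 genotypes by the interaction test of edgeR. The log2 difference, the response in the knockout minus the response with galectin-3, was 0.524 for Fndc5, 0.478 for Rxrg, 0.627 for Gstk1 and 0.608 for Rpl3l, all of which fell less in the knockout. It was -0.325 for Creb3l2, -0.508 for Mgp and -2.098 for Myh7, which rose less there.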

How the results depend on the processing

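The count of 8385 called genes moved by less than 1.5 times under every alternative run, with 8042 to 8368 calls when 1 replicate was left out. Genes changed beyond the bound numbered 3776 to 3919 without 1 replicate and 2521 with a bound of 1.5-fold. Held genes numbered 4612 to 4826 without 1 replicate, 2561 with a bound of 1.2-fold and 8051 with 1.5-fold, and 1988 of the 3454 held under library totals were held with TMM factors too. Lists with at least 50% of members held numbered 28, 22 to 28 without 1 replicate and 11 with library totals. The interaction count of 100 was the least stable, with 63 (without MstTg replicate 1) to 189 (without MstTg replicate 5), 43 without the 4 samples of high Myl4 and 193 with DESeq2. Replicate numbers did not pair the samples as a whole, with number 1 as the exception. The correlation of deviations was over 0.1 for 1 of 6 numbers, and 1 of 6 MstTg samples correlated best with its own number. Both were number 1, with a correlation of 0.262, and the other numbers ran from -0.102 to 0.022. Replicate 1 also had the highest mitochondrial share in each group, 35.46% in wt and 23.35% in MstTg. With the replicate block 8301 genes were called and the interaction called 51. Of the 188 named genes 184 kept their call, and none that was called in either fit changed direction.

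Sign changes were counted only for named genes called in the main fit or in the alternative. None of these changed sign when a replicate was left out. With library totals 19 did, all with small values by TMM: Gata4 became 0.05, Atf6 0.034, Nfix 0.162, Rbm20 0.018, Hnrnpk 0.185, Dusp3 0.186, Trim63 0.16, Klhl31 0.213, Ctsd 0.196, Ctsb 0.175, Rplp0 0.218, Psmd2 0.173, Vcp 0.156, Chmp2a 0.243, Gpi1 0.193, Mon2 0.139, Nbr1 0.133, Myh6 0.04 and Pank3 0.173 on the log2 scale. The adjusted p of Nfib, Mon2, Mark3, Myh6 and Pank2 passed the threshold by edgeR with all samples and missed it without some single samples. Depth limits the held class, since no gene below 1 CPM had an interval inside 1.3-fold.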

Other observations

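Further transcription factors reached a 2-fold rise and were named after their values were seen. Twist1, a factor of mesenchymal cells, went from 0.952 CPM in wt to 3.01 CPM in MstTg (log2 fold change 1.67, SE 0.20). Shox2, which shapes the sinus node, went from 0.542 to 1.72 CPM (1.69, SE 0.28), E2f1, of the cell cycle, from 0.708 to 2.04 CPM (1.52, SE 0.25), and Myc from 2.62 to 5.93 CPM (1.18, SE 0.20). Fos and Fosb, immediate early genes, rose with wide errors, 1.59 with an SE of 0.41 and 1.03 with an SE of 0.33. These levels are group means.

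Genes of the X chromosome, 465 of those tested, were called higher in 36.1% and lower in 20.4% of cases, against 28.2% and 26.8% of all genes. The longest annotated transcript had a median of 3528 bases among genes at least 2-fold higher, 2742 among those at least 2-fold lower and 3786 among held genes. Protein-coding genes made up 98% of the held genes and 86.6% of all. Length and level differ together between these classes, and neither difference was tested.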
